A study of Mus musculus with 4 samples.

Results

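The interferon-inducible GTPases examined here are 10 mouse genes of 2 families, the guanylate-binding proteins Gbp2, Gbp3, Gbp5, Gbp6 and Gbp7 and the immunity-related GTPases Irgm1, Irgm2, Igtp, Iigp1 and Tgtp1. They and the gene lists below were chosen by name, with earlier results of these data known. The shares of all genes set beside their counts thus serve as description only. Of the 10, 9 had a probe of their name on the array, and all 9 were well above background on all 4 arrays, among 20619 named genes that were well above background on at least 1 array. "Well above background" is the scanner software's own call that a spot exceeds its local background. Tgtp1 had no probe of its name, but the probe named Tgtp2 lists transcripts of both Tgtp1 and Tgtp2, and its values are given as those of the pair.

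RNA came from primary hepatocytes of C57BL/6 mice, collected at 24 h after plating, and each of 4 groups has a single array. The control cells came from Drp1 flox/flox littermates, called wild-type in the labels, without and with 200 μM palmitate, a saturated fatty acid. The Drp1LiKO cells came from mice that carried the same floxed alleles and an albumin-promoter Cre, which deletes Drp1 (gene symbol Dnm1l), the GTPase that divides mitochondria, in hepatocytes. These cells too were examined without and with 200 μM palmitate, and the study asked how loss of Drp1 changes the transcriptome of liver cells with and without fatty acid. The number and age of the animals behind each array are not given in the sources used here. The hepatocytes were pelleted by a slow spin and plated, a step that does not remove every other liver cell, and the Cre acts in hepatocytes. In such cells, a different number of cells of a type and a different amount of RNA per cell cannot be told apart.

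Levels are log2 intensities relative to the 75th percentile of the same array, which was 485, 542, 424 and 468 intensity units on the control, Drp1LiKO, control with palmitate and Drp1LiKO with palmitate arrays. A difference of 1 on this scale is 2-fold, and a difference of at least that size is what is counted below. With 1 array in each group, no difference between 2 arrays has a replicate check, and the SD of probes printed repeatedly on 1 array is the one error at hand. Its median was 0.033 to 0.037 for probes above the 75th percentile, 0.088 to 0.103 for probes up to 2 log2 units under it, and 0.148 to 0.224 for dimmer ones, which covers spot error only. Dnm1l was at 2.42 and 2.43 on the control arrays and at 1.07 and 1.01 on the Drp1LiKO arrays, lower by 1.35 and 1.42, in the direction of the labels. All 11 measured hepatocyte markers were well above background on every array. Both untreated arrays were on slide 1 and both palmitate arrays on slide 2, so each genotype comparison lies within a slide, whereas palmitate and slide cannot be told apart.

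Both families are made in response to interferon. Interferon gamma acts through the kinases Jak1 and Jak2, and the type I interferons through factors that include Stat2 and Irf9, and the resulting factors bind a gamma-activated site (TTCNNNGAA) or an interferon-stimulated response element (read here as GAAA, any 2 bases, GAAA, the GAAA-GAAA element) near the genes' start sites. The guanylate-binding proteins gather on vacuoles and on bacteria in the cytosol, open them to immune sensors and help the caspases of the inflammasome to act. Among the immunity-related GTPases, Irgm1, Irgm2 and Igtp (Irgm3) are regulators that sit on the cell's own membranes and hold the effectors inactive there, and Iigp1 (Irga6) and Tgtp1 (Irgb6) are effectors that load onto the membranes of pathogen vacuoles. In the liver, both hepatocytes and the resident macrophages and endothelial cells can make them.

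The promoters are shown first, since the letters of these elements are a sequence feature and not a reading of the arrays. The members were chosen as interferon-inducible genes, which are induced through such elements. Their share is thus not independent of that choice. RefSeq promoter windows of GRCm38.p6 were found for 8 of the 10 members, and none for Gbp6 and Iigp1. In the 250 bases before the start site, the GAAA-GAAA element on either strand was present in a window of all 8 genes, against 3.46% of the 27025 genes with a window (2.98% of 32851 windows). TTCNNNGAA, which reads the same on both strands, was present in 5 of the 8, against 8.13% of genes (7.02% of windows), and was missing from the windows of Gbp2, Gbp3 and Irgm1. For Gbp3, 1 of its 2 windows held the GAAA-GAAA element. None of the TTCNNNGAA matches overlapped a GAAA-GAAA element in the members. The stretches around the match are given 5′ to 3′ on the strand of the gene, with every base of a GAAA-GAAA element in capitals, which reads as TTTC, 2 bases, TTTC where the match is on the other strand. The lines come from chr3:142620574-142620643 (Gbp2, plus strand), chr3:142559969-142560038 (Gbp3, plus), chr3:142496739-142496808 (Gbp5, plus), chr3:142530253-142530322 (Gbp7, plus), chr11:48871421-48871480 (Irgm1, minus), chr11:58214883-58214952 (Irgm2, plus), chr11:58199492-58199555 (Igtp, plus) and chr11:48992284-48992353 (Tgtp1, minus).
Gbp2: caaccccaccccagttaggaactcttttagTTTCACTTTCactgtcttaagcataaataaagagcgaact
Gbp3: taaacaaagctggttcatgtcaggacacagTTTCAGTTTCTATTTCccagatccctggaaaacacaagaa
Gbp5: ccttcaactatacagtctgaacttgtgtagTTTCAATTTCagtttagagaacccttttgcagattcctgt
Gbp7: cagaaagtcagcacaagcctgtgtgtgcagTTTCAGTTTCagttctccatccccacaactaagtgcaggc
Irgm1: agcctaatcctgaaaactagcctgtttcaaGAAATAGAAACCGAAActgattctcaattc
Irgm2: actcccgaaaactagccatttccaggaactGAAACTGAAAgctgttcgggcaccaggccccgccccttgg
Igtp: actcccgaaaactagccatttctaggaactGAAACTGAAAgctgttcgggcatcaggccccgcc
Tgtp1: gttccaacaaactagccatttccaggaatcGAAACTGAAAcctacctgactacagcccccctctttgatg

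The match began 30 bases before the start site in Irgm1, 34 in Igtp, 45 in Gbp3, 53 in Gbp7, 59 in Gbp2, 64 in Irgm2 and 77 in Tgtp1, and 165 in Gbp5. All 4 guanylate-binding protein genes carried it on the strand opposite to the gene, and all 4 immunity-related GTPase genes on the strand of the gene. Irgm2 and Igtp shared 62 of the 64 bases compared, which begin with the same letters and run through the element. In Irgm2, Igtp and Tgtp1 the TTCNNNGAA match lay within the printed stretch, just before the capitals, 75, 45 and 88 bases before the start. Of the other GTPase genes of the families, 8 had a window, and the GAAA-GAAA element was found in 4 of them, Gbp2b, Tgtp2, Gm12250 and Gm12185, and not in Ifi47, Irgq, 9930111J21Rik1 or 9930111J21Rik2. These are matches of letters in a fixed window, and the arrays measure no binding to them.

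Without palmitate, all 9 measured members were higher in Drp1LiKO than in control hepatocytes. Their median difference was 0.79, against -0.02 over the 19878 genes compared, and 3 of the 9 were at least 2-fold higher (Gbp3, Gbp6 and Igtp), against 8.84% of all those genes. With palmitate, 8 of the 9 were higher in Drp1LiKO, with a median difference of 0.76 against -0.03 over 18892 genes. Again 3 of the 9, by name the same genes, were at least 2-fold higher, against 7.26% of all genes. None of the 9 was 2-fold lower in either comparison, against 5.58% and 4.26% of genes.

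**Figure D1:**
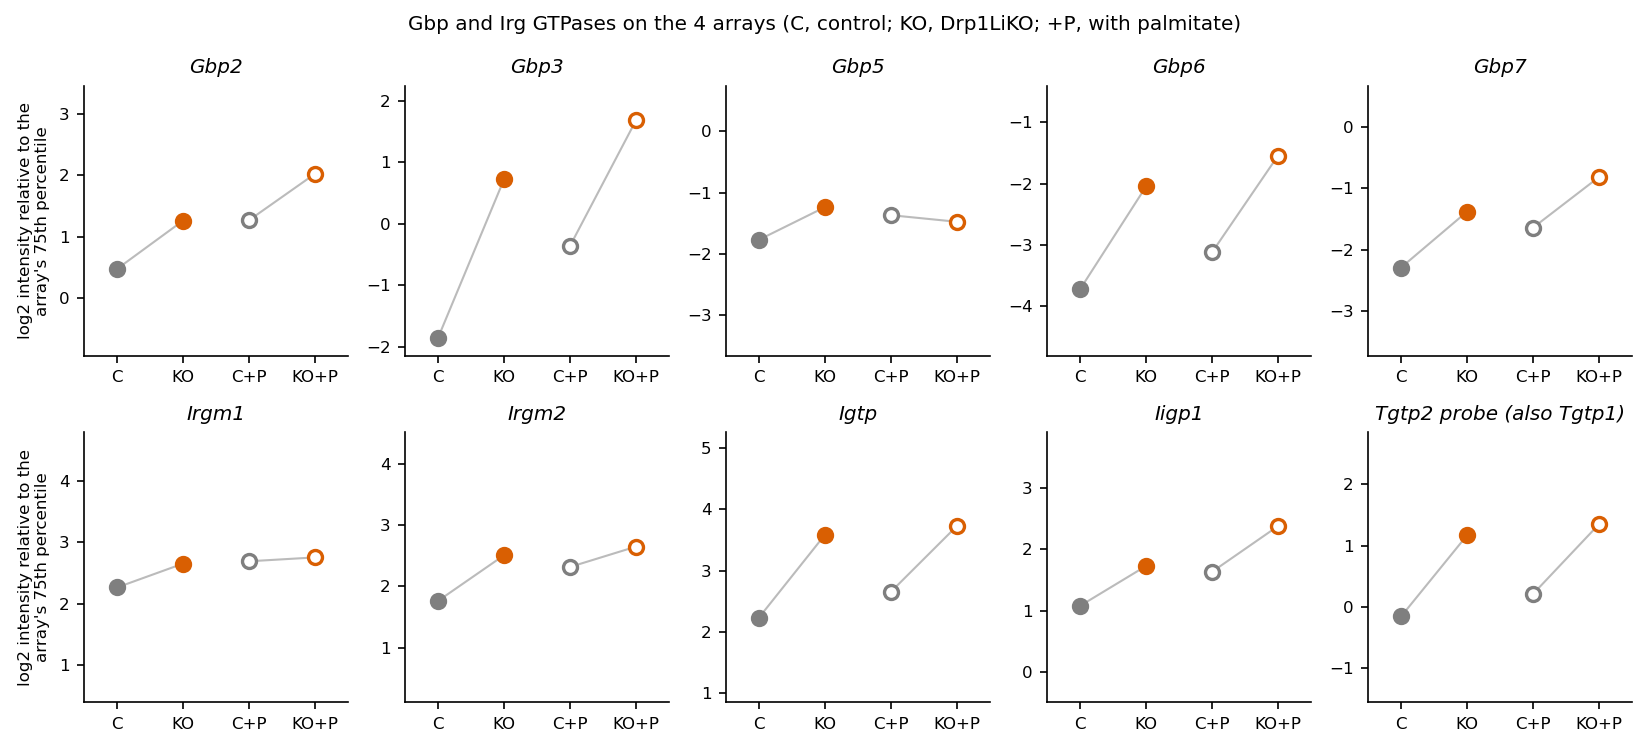
Level of each member on the 4 arrays, as log2 intensity relative to the array's 75th percentile (y axis, the same span in every panel, placed around each gene's mean). Grey, control; orange, Drp1LiKO; filled, untreated; open, with palmitate; each point is 1 array and lines join the genotypes within a slide. The line climbs in every panel but that of Gbp5 with palmitate, and is steepest for Gbp3.

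The chosen probe of each member, but for Gbp5, lists RefSeq transcripts of that gene alone. Among the guanylate-binding proteins, Gbp3 differed most. Its probe, at chr3:142236072-142236131 of NCBI37/mm9, read -1.86 in control, 0.72 in Drp1LiKO, -0.36 in control with palmitate and 1.69 in Drp1LiKO with palmitate. Both Drp1LiKO arrays stood above both control arrays, and the genotype difference was 2.58 (5.99-fold) untreated and 2.05 (4.14-fold) with palmitate. Gbp3 lies in the cluster on chromosome 3 whose products help caspase-11 to be activated by bacterial lipopolysaccharide.

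Gbp6, from the second gene cluster on chromosome 5 (chr5:105700081-105700140), read -3.72, -2.05, -3.12 and -1.54 on the 4 arrays in the same order. The Drp1LiKO arrays were again the 2 highest, by 1.68 (3.20-fold) untreated and 1.58 (2.98-fold) with palmitate. The probe was dim on all 4 arrays, and with a normexp background correction the differences were 0.80 and 0.89, under 2-fold.

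Gbp2, which gathers on the vacuole of Toxoplasma, read 0.47 in control, 1.26 in Drp1LiKO, 1.26 in control with palmitate and 2.02 in Drp1LiKO with palmitate (chr3:142300719-142300778). The genotype difference was 0.79 untreated and 0.76 with palmitate, and the untreated Drp1LiKO and the palmitate-treated control arrays were level. Gbp7 (chr3:142209379-142209438) read -2.29, -1.38, -1.64 and -0.82, a genotype difference of 0.91 and 0.83, with both Drp1LiKO arrays above both control arrays.

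Gbp5, which takes part in inflammasome assembly, was read by 2 probes that disagreed. The brighter one (chr3:142181426-142181485), which is assigned to a transcript without a RefSeq match, read -1.77 in control, -1.23 in Drp1LiKO, -1.37 in control with palmitate and -1.47 in Drp1LiKO with palmitate, so that Drp1LiKO was higher by 0.53 untreated and lower by 0.11 with palmitate, a difference close to the error between repeat spots. The dimmer probe (chr3:142184779-142184838), which lists the RefSeq transcript of Gbp5, cleared the background limit on neither control array and cleared it on both Drp1LiKO arrays, at -4.42 and -2.94. Against the lowest signal well above background on the control array, its level was at least 1.25-fold higher in Drp1LiKO untreated and at least 3.30-fold higher with palmitate. Between the 2 Drp1LiKO arrays, both measured, this probe was 1.48 higher with palmitate, where the brighter probe was 0.24 lower.

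**Figure D2:**
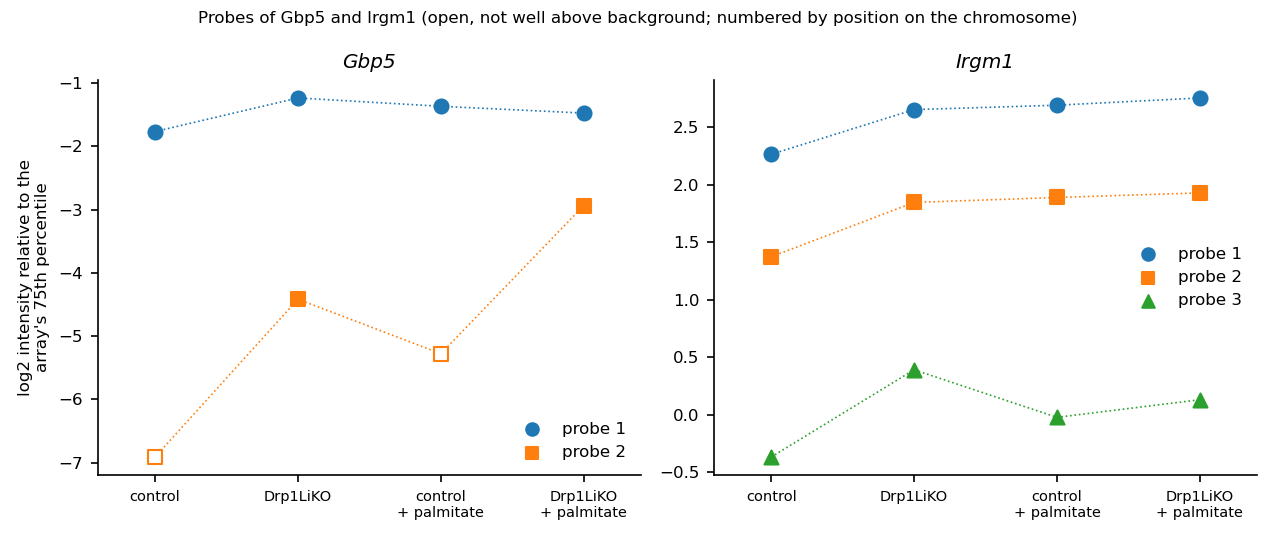
Levels of the probes of Gbp5 (left) and Irgm1 (right) on the 4 arrays, as log2 intensity relative to the array's 75th percentile; filled points are well above background and open points are not. The dimmer Gbp5 probe is filled on the Drp1LiKO arrays only, and the 3 Irgm1 probes are lowest in untreated control.

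Of the regulatory immunity-related GTPases, Igtp showed the largest genotype difference and Irgm1 the smallest. Igtp, which sits on the endoplasmic reticulum and on lipid droplets, read 2.24 in control, 3.59 in Drp1LiKO, 2.66 in control with palmitate and 3.73 in Drp1LiKO with palmitate (chr11:58020927-58020986). Both Drp1LiKO arrays were above both control arrays, by 1.35 untreated and 1.07 with palmitate. Irgm2, its neighbour on the chromosome (chr11:58036064-58036123), read 1.76, 2.51, 2.32 and 2.65, which is 0.74 higher in Drp1LiKO untreated and 0.33 higher with palmitate.

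Irgm1, which is known for its part in autophagy and the upkeep of mitochondria, read 2.26, 2.65, 2.69 and 2.75 at its brightest probe (chr11:48679069-48679128, minus strand). The genotype difference was 0.39 untreated and 0.06 with palmitate, and the untreated Drp1LiKO array lay below the palmitate-treated control array. A second probe of Irgm1 (chr11:48679134-48679193) gave 0.47 and 0.04. Another (chr11:48679632-48679691) gave 0.76 and 0.15, and the last was not well above background on any array. All 3 readable probes thus put the larger genotype difference in untreated cells.

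Both effector probes were higher in Drp1LiKO. Iigp1 read 1.08 in control, 1.73 in Drp1LiKO, 1.63 in control with palmitate and 2.38 in Drp1LiKO with palmitate, a genotype difference of 0.65 untreated and 0.75 with palmitate. Of the 9 members it alone had a larger genotype difference under palmitate, while with normexp Gbp6 and Gbp7 did too and with the mean of probes Iigp1 did not (0.42 and 0.18). That mean takes in a second Iigp1 probe, which was not well above background on any array. The probe shared by Tgtp1 and Tgtp2 (chr11:48871837-48871896, minus strand) read -0.16, 1.17, 0.21 and 1.35, higher in Drp1LiKO by 1.32 and 1.14. Its signal cannot be divided between the 2 genes.

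Ordered by array, all 9 members were lowest in untreated control cells and 8 were highest in Drp1LiKO cells with palmitate, the exception being the brighter probe of Gbp5. The share of all genes with these extremes was not counted, so these counts are a description of the members only. For 6 of the 9 (Gbp3, Gbp6, Gbp7, Irgm2, Igtp and Iigp1), both Drp1LiKO arrays stood above both control arrays, against 25.8% of the 16613 genes that were well above background on all 4 arrays. Gbp2, Gbp5 and Irgm1 were the 3 for which the genotypes overlapped.

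**Figure D3:**
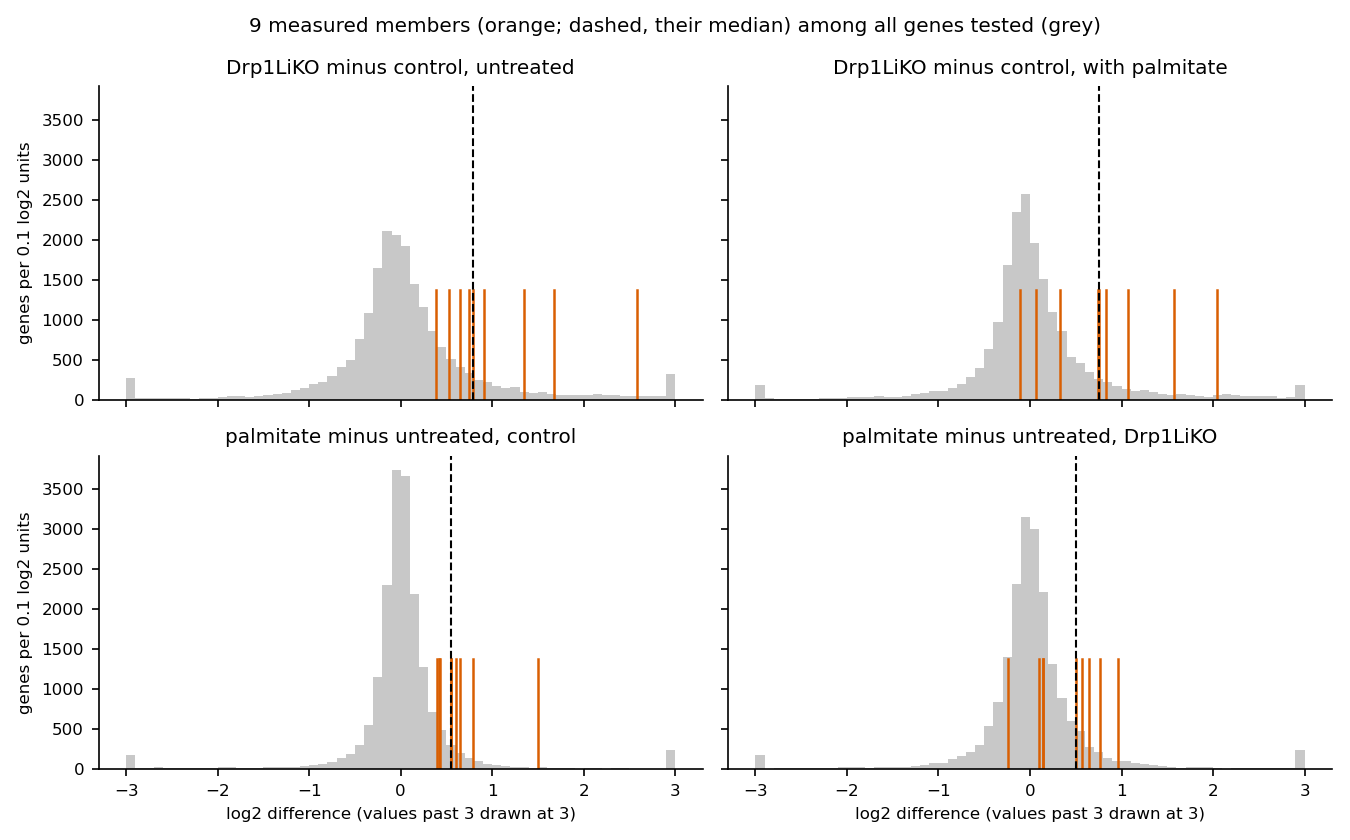
Number of genes (y axis, grey bars, per 0.1 log2 units) by log2 difference (x axis) in each of the 4 comparisons, with the 9 measured members as orange lines and their median as a dashed line; genes past 3 are drawn at 3. In each comparison the members' median, from 0.50 to 0.79, lies to the right of the bulk of the genes, with all 9 members above 0 in the untreated genotype comparison and in the palmitate comparison of control cells.

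A fit over the 4 arrays with genotype and palmitate as additive terms was the one test the design allows, and it leaves 1 residual degree of freedom. That degree of freedom holds any change of the genotype difference between the 2 slides as well as noise. The SE below thus reflects how alike that difference was on both slides, and not a spread between cell preparations or animals. With limma and Benjamini-Hochberg adjustment it called 0% of the 20619 genes for genotype and none of the members, with a smallest adjusted p of 0.119. At an unadjusted p under 0.05 it held 5364 genes and 6 of the 9 members. The genotype estimate was 2.32 ± 0.19 (SE) for Gbp3, 1.63 ± 0.078 for Gbp6 and 1.21 ± 0.12 for Igtp, with limma adjusted p of 0.121, 0.119 and 0.123. For Gbp5 and Irgm1 it was 0.21 ± 0.23 and 0.23 ± 0.13. These calls depended on the background correction, the filter and the variance prior: in genes well above background on all arrays, for example, limma called 2588 of 16613, and 6 of the 9 members.

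Palmitate-treated cells had higher levels of most members in both genotypes. In control cells all 9 were higher with palmitate, with a median difference of 0.55 against 0.01 over 18773 genes, and Gbp3 was the 1 member at least 2-fold higher (1.50), against 2.83% of genes. In Drp1LiKO cells 8 of the 9 were higher, with a median of 0.50 against 0.00 over 19751 genes, and none reached 2-fold, against 3.92% of genes. None was 2-fold lower, against 2.87% of genes in control and 3.11% in Drp1LiKO cells.

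The members differed in how far the palmitate difference depended on genotype. For Gbp2 it was 0.79 in control and 0.76 in Drp1LiKO cells, for Gbp6 it was 0.60 and 0.50, and for Gbp7 it was 0.65 and 0.56. Iigp1 gave 0.55 and 0.65. For these 4 genes the palmitate difference was thus of like size in both genotypes. The regulatory GTPases had most of theirs in control cells: Irgm1 0.43 against 0.10, Irgm2 0.55 against 0.14 and Igtp 0.42 against 0.14. Gbp3 gave 1.50 against 0.96. In 8 of the 9 members the difference was smaller in Drp1LiKO cells, with Iigp1 the exception, as it was in 50.4% of the 16613 genes. The count was 6 of the 9 with normexp and 9 with the mean of probes, which takes in the Iigp1 probe at background. The median of Drp1LiKO minus control was -0.28 for the members and -0.00 for all those genes. With 1 array a group, this difference of differences was not tested.

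The rest of the 2 families, 19 further genes fixed as a list, was measured for 13 genes. These include Tgtp2, by the probe shared with Tgtp1 and already given above, which is past 2-fold in both genotype comparisons. Untreated, 8 of the 13 were at least 2-fold higher in Drp1LiKO, against 8.84% of all genes, and none was 2-fold lower. With palmitate 5 of 13 were higher, against 7.26% of all genes, and none lower. Of those 5, only the probe shared by Tgtp1 and Tgtp2 was measured on both arrays. For 4 of the 13 genes the probe did not clear the background limit on the control arrays. They thus entered only through the Drp1LiKO arrays, and their differences are bounds. Over the other 9, measured on all the arrays compared, the median was 0.21 untreated and 0.19 with palmitate. Gbp9, whose probe also lists Gbp4, Gbp6 and Gbp10, was at least 3.30-fold higher untreated and at least 3.75-fold with palmitate. Gbp11 was at least 2.72-fold and 2.68-fold higher, Gbp8 at least 1.36-fold and 1.45-fold, and Gm12250 (Irgb10), which attacks bacterial membranes, at least 1.04-fold and 1.33-fold. The bounds of Gbp8 and Gm12250 are under 2-fold although their measured values count as past it.

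Among the other GTPases measured on all arrays, F830016B08Rik read 0.66, 2.17, 0.88 and 1.68, a genotype difference of 1.51 without and 0.80 with palmitate. Gm4951 was 1.21 and 0.82 higher at its brighter probe, and Gvin1, a very large GTPase whose probe also lists Gm4070, was 1.24 and 0.99 higher. Not every interferon-inducible GTPase had this direction. Ifi47 (Irgd) read 1.71 in control, 1.43 in Drp1LiKO, 2.12 in control with palmitate and 1.83 in Drp1LiKO with palmitate, lower by 0.28 and 0.29. Gbp10, whose probe also lists Gbp6, differed by -0.01 and -0.18, and the probe of 9930111J21Rik1, which also lists Psme2b, by -0.03 and -0.16. Irgq, a quite different relative that interferon does not induce, differed by 0.14 and 0.19. The bright Gm4841 probe, made largely of dinucleotide repeats, differed by 0.21 and -0.03. Gbp2b, Gbp4, Gm12185, Irgc1 and 9930111J21Rik2 were at background throughout, and Gbp1 had no probe.

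**Figure D4:**
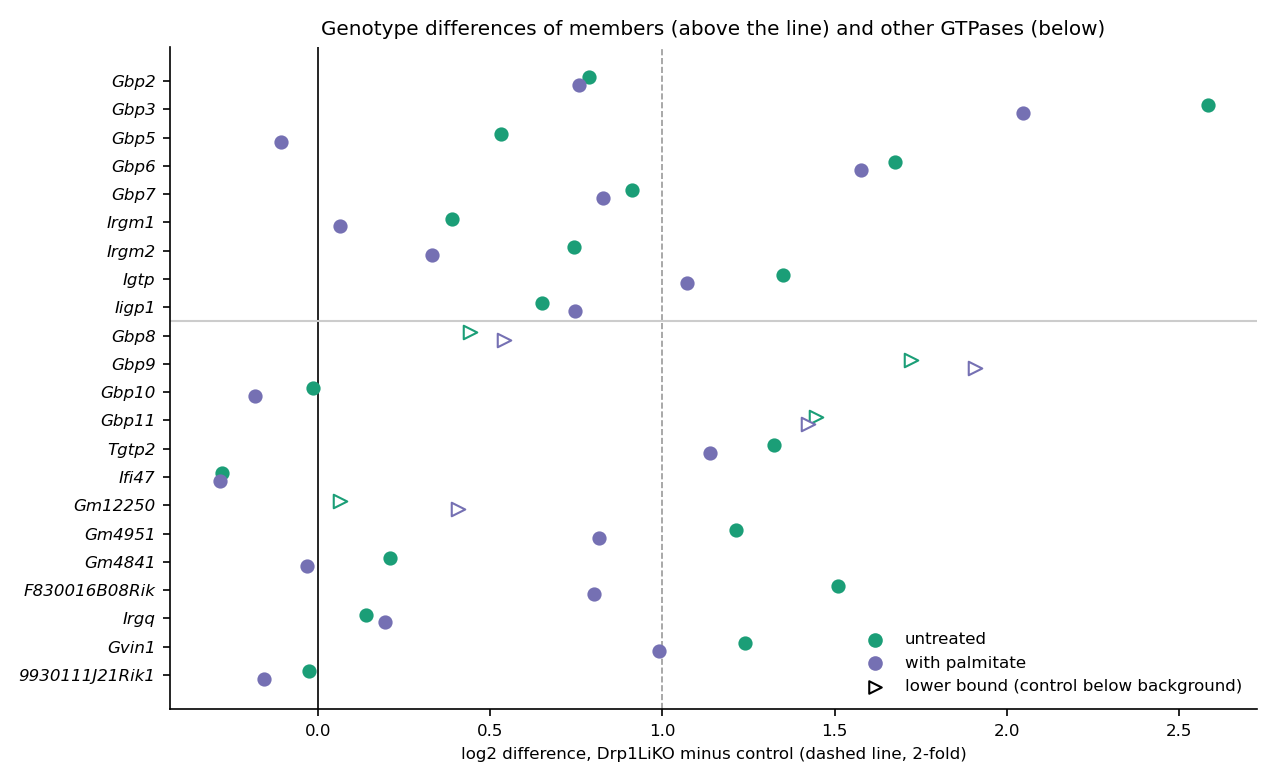
Difference between Drp1LiKO and control (x axis, log2) for each of the 9 measured members (above the grey line) and 13 other GTPases (below it), untreated in green and with palmitate in purple; open triangles are lower bounds where the control array was below background, and the dashed line marks 2-fold. Gbp3 lies furthest right, at 2.58 and 2.05, and Ifi47 lies left of 0 in both conditions.

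The interferon pathway that these GTPases belong to was examined as a list of 23 genes, of which 21 were measured. Untreated, 9 of 20 compared were at least 2-fold higher in Drp1LiKO, against 8.84% of all genes, and none was 2-fold lower. With palmitate 8 of 21 were higher, against 7.26% of all genes, and none lower. The median over the 19 genes above background on both arrays was 0.17 and 0.37. Ifng, the cytokine itself, was not well above background on any array. Its receptor and kinases were close to level, with Ifngr1 at -0.13 and -0.17, Ifngr2 at -0.07 and 0.03, Jak1 at -0.19 and -0.19, and Jak2 at 0.17 and -0.12, untreated and with palmitate. Of the factors downstream, Stat2 was higher in Drp1LiKO by 1.45 and 1.02 and Irf9 by 1.08 and 0.64. Stat2 read 1.34, 2.79, 1.90 and 2.92 on the 4 arrays, the same order as Igtp.

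Irf8, a factor of macrophages and other myeloid cells, was higher by 1.29 and 1.27. Irf1, which acts on many of these promoters, was not, at -0.14 and -0.04, nor was Socs1, the feedback inhibitor, at 0.15 and -0.29. Among genes of the list measured on both arrays, the largest genotype differences were those of Usp18, a brake on type I interferon receptors, at 2.35 and 1.84, and Irf7, a factor that amplifies type I interferon, at 1.83 and 1.49. Batf2, at background on both control arrays, was at least 1.96-fold and 2.82-fold higher, and Ifnb1, above background only in Drp1LiKO with palmitate, at least 1.18-fold higher there. The counts at 2-fold take in Batf2 untreated and Ifnb1 with palmitate, although these bounds are under 2-fold. In the palmitate comparisons none of 19 genes of the list was 2-fold higher in control cells, and 1 of 21 was in Drp1LiKO cells, which was Socs3 (1.43), a feedback inhibitor of cytokine signalling named here after its value was seen.

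Partners of the guanylate-binding proteins in the inflammasome were measured for 7 of 8 genes, Nlrp3 being at background throughout. In Drp1LiKO 4 of 7 were at least 2-fold higher untreated and 3 of 6 with palmitate, against 8.84% and 7.26% of all genes. Casp1, Aim2 and Il1b untreated, and Casp1 with palmitate, entered only through the Drp1LiKO array. Over the genes measured on both arrays, 4 untreated and 5 with palmitate, the median was -0.12 and 0.01. Gsdmd differed by -0.33 and -0.40, Il18 by -0.18 and -0.09, and Pycard by -0.07 and 0.01. Casp4, which encodes mouse caspase-11, read -3.38, 0.70, -2.86 and 1.70, higher by 4.08 and 4.57. Casp1, at background on both control arrays, was at least 3.26-fold and 3.78-fold higher. Aim2 was at least 2.47-fold higher untreated. Il1b was at least 2.50-fold higher untreated and 1.96 higher on the log2 scale with palmitate. By contrast, none of the 11 genes of the autophagy conjugation machinery, which places these GTPases on vacuoles, was 2-fold different in any comparison (medians 0.16 and 0.10), and the largest genotype difference was that of Atg7, at 0.85 and 0.83.

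Markers of other liver cells moved with the same genotype comparisons. The summed linear level of the 9 members, with each array's 75th percentile set to 1, was 17.3 in control, 32.4 in Drp1LiKO, 24.8 in control with palmitate and 40.0 in Drp1LiKO with palmitate. Igtp and Irgm1 weigh most in it. The genotype difference of Igtp was 1.35 untreated and 1.07 with palmitate, and that of Irgm1 was 0.39 and 0.06. The summed level of 18 measured macrophage markers was 33.6, 66.2, 41.4 and 64.6. It was 2.11, 6.58, 2.06 and 4.59 for 12 endothelial markers, and 45.2, 62.6, 46.5 and 59.3 for 9 stellate cell markers. In the stellate sum Acta2 weighs most, a gene whose genotype difference was 0.22 untreated and 0.02 with palmitate. Of the macrophage markers compared, 14 of 18 were at least 2-fold higher in Drp1LiKO untreated and 12 of 16 with palmitate. It was 10 of 12 and 7 of 11 for the endothelial markers, 7 of 9 and 6 of 8 for the stellate markers, and 8.84% and 7.26% for all genes. Some of these markers entered only through the Drp1LiKO array. Over markers measured on both arrays, the median was 2.34 untreated and 1.65 with palmitate for macrophage, 1.80 and 1.53 for endothelial and 1.11 and 1.61 for stellate markers. Tek, an endothelial marker, was at least 2.72-fold lower with palmitate, and of the markers counted as higher, Tek untreated, Lyve1 with palmitate and Rgs5 in both had bounds under 2-fold. Timd4 and Cd163 of the macrophage list and Des of the stellate list were at background on all arrays.

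Hepatocyte markers summed to 1370, 1383, 1357 and 1390, a sum in which Alb and Serpina1a weigh most. Singly they ranged more widely: their median genotype difference was 0.20 untreated and 0.16 with palmitate, 2 of 11 were at least 2-fold higher in each comparison (Tat at 1.50 and 1.22, Ass1 at 1.23 untreated and Cps1 at 1.12 with palmitate), and Cyp2e1 was lower, at -0.66 and -0.72. Lymphocyte and NK cell markers summed to 3.13, 2.92, 3.82 and 3.41, with 5 of 14 measured. Cd3e, Cd4 and Prf1, the 3 measured on all arrays, were each lower in Drp1LiKO in both comparisons. Their median genotype difference was -0.26 untreated and -0.21 with palmitate. Cd3d was above background in untreated Drp1LiKO alone, at least 10.2-fold higher than in control. Ms4a1 was above background in Drp1LiKO with palmitate alone, at least 1.93-fold higher than in control with palmitate. At background on all arrays were, among the others, Cd3g, Cd8a, Ncr1, Klrb1c, Nkg7, Gzma, Gzmb and Ifng. Neutrophil markers (3 of 6 measured) summed to 1.37, 1.42, 1.59 and 2.01, and cholangiocyte markers (4 of 5) to 60.5, 41.8, 57.1 and 43.6. Elane weighs most in the former sum and Spp1 in the latter. Elane differed by -0.09 untreated and 0.04 with palmitate. Ly6g, at background on both control arrays, was at least 4.84-fold and 3.12-fold higher in Drp1LiKO. S100a8 was at background on both untreated arrays and 2.39 higher in Drp1LiKO with palmitate. The part of the non-hepatocyte cells in the members' genotype differences was not tested.

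**Figure D5:**
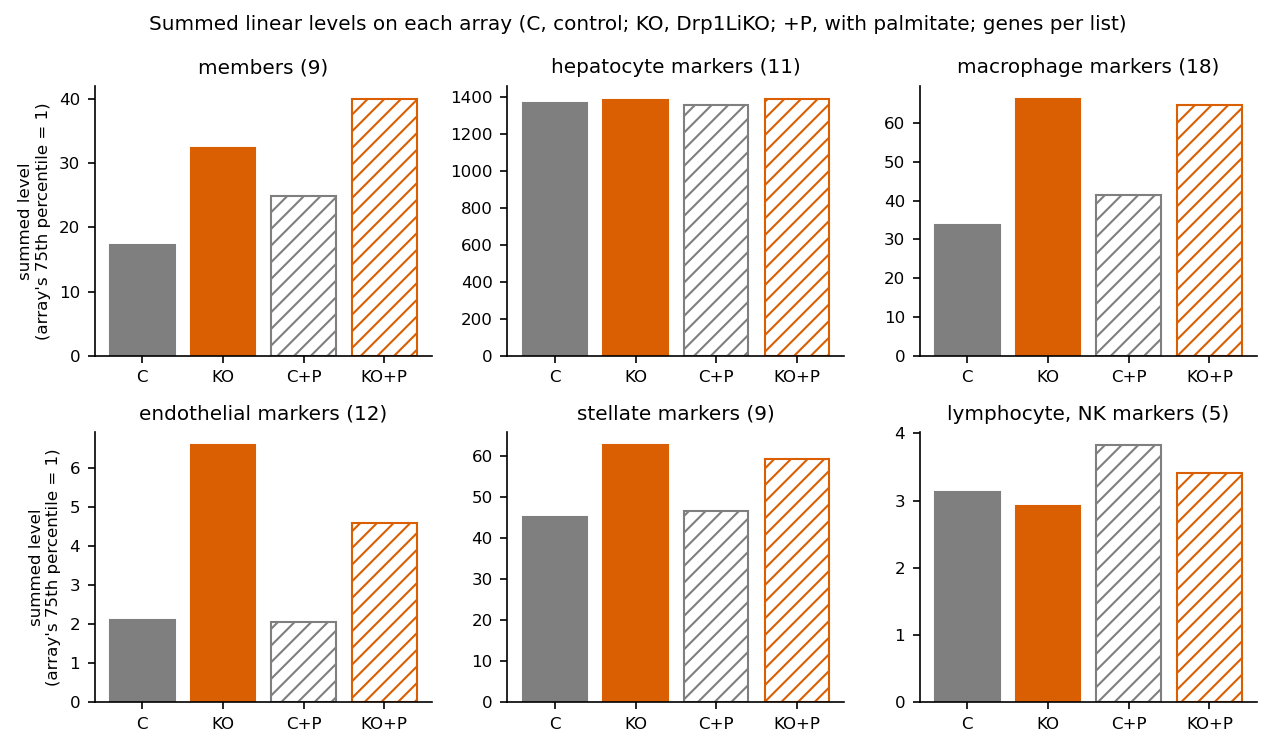
Summed linear level (y axis, array's 75th percentile set to 1) of the 9 members and of marker lists of liver cell types on each array; grey, control; orange, Drp1LiKO; hatched, with palmitate; 1 array per bar. Members, macrophage, endothelial and stellate markers have higher sums in Drp1LiKO on both slides, and the hepatocyte sum stays between 1357 and 1390.

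By the distance between array profiles, each centred on the gene's own mean over the 4 arrays, the genes most like the members' median profile among 16518 others were Cd22 (distance 0.066 log2 units), Dusp2 (0.079), Ermn (0.085), 1700112J16Rik (0.089) and Lypd6b (0.098). The profile they were matched to ran -0.76, 0.20, -0.07 and 0.68. Each profile rests on 4 points, and no test goes with the distance.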

How the data were processed

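Total RNA of primary hepatocytes was hybridised in 1 colour to Agilent 60K mouse arrays, 1 array for each of 4 groups. Per the file headers, the deposited scanner tables hold background-subtracted intensity values from Feature Extraction 10.7.1.1 (the labels name 9.5.1.1), on the NCBI37/mm9 design. The authors' processed table, used as an alternative, holds linear intensity values whose columns share 1 distribution, as quantile normalization gives. The array of untreated control cells has, by its label, the raw data of a sample of another series.

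Control spots and spots flagged as outliers were left out, repeat spots averaged, and log2 of the processed intensity set against each array's 75th percentile. A gene took its brightest probe among those well above background on at least 1 array. Where a probe was below background on 1 of both arrays, the fold was bounded by that array's lowest signal well above background. From 44.7% to 51.1% of 56605 probes were well above background on an array, no spot was saturated, and precision is limited by how few arrays there are. With 1 array a group, differences were counted at 2-fold with no test. The additive fit used limma 3.58.1 in R 4.3.3 (two-sided, adjusted p under 0.05). It was also run on simulated data, in settings that do not show how it fares on these arrays. Python 3.11.15 did the rest.

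The members and gene lists were chosen with earlier results of these data known. Named are the members and all their probes, all measured other GTPases, signalling genes picked by role (not all reported here) with the 2 largest rises, all partners, autophagy genes past 2-fold, with Atg7 named after its value was seen, and the 5 genes of nearest profile. Alternatives were a normexp background correction (offset 50), the authors' table, the median as the scaling, 2 treatments of dim probes, the mean of a gene's probes and, in limma, an intensity trend.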

Additional observations from a re-analysis of the deposited data

Results flagged for a closer look

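Among the members and the other GTPases of the families, the palmitate difference had opposite signs in the 2 genotypes for a pair of genes whose differences both exceeded the error between repeat spots. For Gbp5, at its brighter probe, it was 0.40 in control and -0.24 in Drp1LiKO cells, so that Drp1LiKO minus control was -0.64, and its dimmer probe was higher with palmitate in Drp1LiKO cells. For F830016B08Rik it was 0.22 and -0.49, so that Drp1LiKO minus control was -0.71. Neither difference was tested, since each group is 1 array.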

How the results depend on the processing

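Of 216 member differences recomputed under the alternatives, 214 kept their direction, and 184 moved by less than the error between repeat spots. Part of this was fixed in advance. All measured members were well above background on all 4 arrays, so the 2 treatments of dim probes change none of their values. Nor does the mean of probes change a member with a single probe. The error used here was that over all repeat probes, most of them bright. The 2 differences that reversed were those of Gbp5 under the mean of its probes, where the genotype difference with palmitate was 1.12 and the palmitate difference in Drp1LiKO cells was 0.62, a mean that takes in the second probe. With that mean, 2 members in place of 1 were past 2-fold in the palmitate comparison of control cells. The number at least 2-fold higher in Drp1LiKO went from 3 to 2 with normexp and to 4 with the mean of all probes, in both genotype comparisons. limma called 1429 genes with normexp, 2588 in genes well above background on all arrays and 5353 with an intensity trend, against 0 with the authors' table, the median scaling and the mean of probes. Members called were 6, 6 and 7 in the first 3. The cause was not tested. In a simulation of the genotype term over 20619 genes, limma recovered 0 of 200 genes changed by 2 log2 units at the fitted spread and 200 of 200 at an equal spread. At the equal spread it also called 10 unchanged genes. The fitted spread takes each gene's SD from 1 degree of freedom as its true SD, and the equal spread gives all genes the same SD. Neither setting thus shows how limma fares on these data. Beyond limma, whose palmitate term compares the genotypes within each slide, no paired analysis was possible because the labels give no shared replicate numbers. Dim probes limit Gbp6, Gbp7 and the second Gbp5 probe.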
